A study of Rattus norvegicus with 6 samples.

Results

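The B7 co-stimulatory and checkpoint ligands examined here are the 9 genes Cd80, Cd86, Cd274, Pdcd1lg2, Icosl, Cd276, Vtcn1, Cd40 and Cd47, taken by gene symbol from a table of 18930 rows of RNA-seq counts. The list was chosen by a measured value, the log2 fold change of Cd80 in these same samples, which was among the largest rises, so the values of the ligands are a description and carry no test. RNA came from NRK-52E, an established epithelial line from normal rat kidney that the study uses as a model of the proximal tubule, with the genotype given as WT in every sample. The control group (Control) comprised 3 samples of vehicle-treated cells. The STZ group comprised 3 samples of cells exposed for 24 h to streptozotocin at a dose of 10 mM. Streptozotocin (STZ) is a glucose analog that alkylates DNA and is used against neuroendocrine tumors. Whether the samples of a group were separate cultures is not stated, so errors and p-values measure the spread between these samples, which may be technical.

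T cells need a second signal besides the antigen receptor, and the B7 proteins on the surface of other cells supply or withhold it. CD80 and CD86 bind CD28, which activates T cells, and CTLA-4, which restrains them. PD-L1 (encoded by Cd274) and PD-L2 (Pdcd1lg2) bind the inhibitory receptor PD-1, ICOS ligand (Icosl) binds ICOS, and B7-H3 (Cd276) and B7-H4 (Vtcn1) are mostly described as restraining T cells. CD40 is a receptor of the TNF family through which T cells license antigen-presenting cells, and CD47 binds SIRP-alpha on macrophages and restrains phagocytosis. Dendritic cells, macrophages and B cells are the usual sources of CD80 and CD86, whereas CD47 is found on nearly all cells.

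Of the 9 ligand genes, 6 were matched to a row, and 5 of these passed the filter on low counts. Cd86, Pdcd1lg2 and Icosl were matched to no row and were not analysed here. The sequences upstream of Cd80, Cd274 and Vtcn1 are shown because these genes had the largest differences between the groups, and that of Cd276 because it had the smallest. They are the 250 bases before a transcription start in the RefSeq promoter table (GRCr8 build), written 5′ to 3′ on the strand of the gene, and capitals mark the motif matches described after them. That table held windows for 7 of the 9 genes, with 2 windows for Cd80, of which the upstream one is printed.
Cd80, chr11:75797541-75797790, minus strand: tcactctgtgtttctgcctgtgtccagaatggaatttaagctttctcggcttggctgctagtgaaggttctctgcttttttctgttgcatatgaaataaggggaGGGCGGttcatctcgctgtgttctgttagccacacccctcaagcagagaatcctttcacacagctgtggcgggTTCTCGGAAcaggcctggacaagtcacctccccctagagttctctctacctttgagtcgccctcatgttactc
Cd274, chr1:236529982-236530231, plus strand: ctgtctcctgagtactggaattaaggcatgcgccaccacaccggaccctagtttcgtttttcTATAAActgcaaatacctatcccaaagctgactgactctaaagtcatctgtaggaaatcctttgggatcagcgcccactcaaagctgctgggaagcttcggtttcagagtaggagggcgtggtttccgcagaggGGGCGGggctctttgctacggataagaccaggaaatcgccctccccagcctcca
Vtcn1, chr2:190941974-190942223, plus strand: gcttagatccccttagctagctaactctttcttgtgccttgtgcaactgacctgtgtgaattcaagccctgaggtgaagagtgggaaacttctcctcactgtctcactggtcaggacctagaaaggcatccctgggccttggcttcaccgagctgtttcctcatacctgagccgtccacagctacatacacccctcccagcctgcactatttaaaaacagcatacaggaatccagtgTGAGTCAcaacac
Cd276, chr8:67863919-67864168, minus strand: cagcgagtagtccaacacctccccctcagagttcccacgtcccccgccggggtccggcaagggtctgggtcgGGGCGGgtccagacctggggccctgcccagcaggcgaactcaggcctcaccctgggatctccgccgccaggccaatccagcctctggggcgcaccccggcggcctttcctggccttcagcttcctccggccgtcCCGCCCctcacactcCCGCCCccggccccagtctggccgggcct

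The 7 motifs searched, on both strands, were AP-1 (TGANTCA), GAS (TTCNNNGAA), the ISRE core (a pair of GAAA runs set 2 bases apart), the Sp1 box (GGGCGG), the TATA box (TATAAA), NF-kB and the p53 half-site. The Cd80 window held a GAS match 73 to 65 bases before the start, a motif that 7.67% of all 33469 windows held. It also held an Sp1 box, which 30.5% of windows held. The second Cd80 window, not printed, held an ISRE core match, found in 3.41% of windows. The Vtcn1 window held an AP-1 match 13 to 7 bases before the start (6.34% of windows). The Cd274 window held a TATA match (12.9% of windows) and an Sp1 box, and the Cd276 window held 3 Sp1 boxes. The first Cd80 window and those of Cd274 and Vtcn1 had GC contents of 50.4%, 52.8% and 50.8%, close to the median of 51.2% over all windows. The contents were 73.6% for Cd276, 74% for Cd47, 48.8% for Cd86 and 53.2% for Pdcd1lg2. The printed genes were chosen by their fold changes, and a link of GC content to these was not tested. Among the 7 genes with a window, an NF-kB match was found only for Cd86 (3.54% of all windows) and a p53 half-site match only for Pdcd1lg2 (6.64% of all windows), both genes without counts here. A match is a likeness in letters, and no binding was measured.

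Total counts ranged from 10430924 to 12737131 in Control and from 11658253 to 15191349 in STZ. Levels are counts-per-million (CPM) values after edgeR's TMM scaling, and fold changes are from edgeR's quasi-likelihood fit, in which 11870 genes passed edgeR's filter on low counts. Adjusted p-values are those of edgeR's quasi-likelihood test after Benjamini and Hochberg. Passing both thresholds means an adjusted p under 0.05 together with a log2 fold change past 1 in either direction. Of 7 epithelial markers, Krt8 rose from 1150 ± 40.7 to 1600 ± 8.05 CPM (SD, n = 3; edgeR adjusted p = 1.8e-15) and Cdh1 (E-cadherin) fell from 2.58 ± 0.524 to 1.64 ± 0.553 CPM (SD, n = 3; edgeR adjusted p = 0.03). Krt7 was at 1.36 ± 0.157 and 1.25 ± 0.352 CPM (SD, n = 3; edgeR adjusted p = 0.7), Krt18 and Cldn4 never exceeded 4 reads, and Epcam and Krt19 were matched to no row. Of 11 renal tubule markers, 8 had at most 10 reads in every sample and Pax2 was matched to no row. The defining leukocyte marker Ptprc (CD45) had 1 read in 1 Control sample and 0 in the other samples. Cd3d, Cd3g, Lyz2 and Adgre1 had at most 1 read, Cd3e had 1 to 4 and Csf1r had 0 to 7. Of the 10 myeloid and dendritic cell markers, 2 (Cd14 and Itgax) were higher in STZ by edgeR's test at the adjusted p threshold. Among all genes tested, 25.9% were higher. Itgax had 37 to 100 reads per sample, and Cd68 had 7 to 29 (edgeR adjusted p = 0.28). Itgam, Cd163 and C1qa were matched to no row. The list's summed level was 106 to 108 CPM in Control and 128 to 136 CPM in STZ. Most of that level came from Cd14, at 102 ± 1.63 CPM in Control and 122 ± 4.08 CPM in STZ (SD, n = 3). The 4 endothelial markers had at most 9 reads in any sample, the B cell marker Cd79a at most 4, and the other 3 B cell and all 3 NK cell markers were matched to no row. In the other lists, the summed T cell markers lay at 2.36 to 2.65 CPM in Control and 2.67 to 3.56 CPM in STZ. Lck made up most of this, at 2.25 ± 0.294 CPM in Control and 3 ± 0.523 CPM in STZ (SD, n = 3). Both fitted fibroblast markers of 5 were lower in STZ at the adjusted p threshold, as were 25.1% of all genes tested. Their list's summed level was 47 to 52.4 CPM in Control and 36.8 to 43.6 CPM in STZ. The part of these markers in the ligand results was not tested. In bulk RNA, a change in the number of cells of a type and a change in RNA per cell cannot be told apart.

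All 5 ligand genes that could be fitted had higher levels in STZ than in Control. The largest difference was that of Cd80, the gene for whose rise the list was chosen. The log2 fold changes ran from 0.18 to 2.58 with a median of 0.61, against a median of -0.01 over all genes tested. Cd80 and Cd274 passed both thresholds, 2 of 5 genes, where 3.37% of all genes tested did so in either direction and 2.26% in the higher direction. All 5 met the threshold on adjusted p alone, which 50.9% of all genes met in either direction and 25.9% in the higher direction. In all 5, every STZ sample lay above every Control sample, as in 28.6% of all genes tested. Since Cd80 prompted the list and the genes had to pass a filter, nothing is read from these counts.

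Cd80 had 158, 139 and 180 reads in Control replicates 1, 2 and 3, and 1064, 977 and 1307 reads in STZ replicates 1, 2 and 3. On the CPM scale these were 14.9, 12.6 and 14 in Control and 77.3, 84.9 and 87.2 in STZ. The lowest STZ sample stood far above the highest Control sample, and the replicates of each group were close to each other. The means were 13.9 ± 1.14 CPM in Control and 83.1 ± 5.16 CPM in STZ (SD, n = 3), a log2 fold change of 2.58 with a standard error of 0.07, or 6-fold. Cd80 had rank 19 of 11870 by log2 fold change, between Nppb (2.62) and Pou2af1 (2.55). The spread between Control replicates, a coefficient of variation of 8.21%, was close to the 7.93% that read counting alone gives at this depth, and that between STZ replicates, 6.2%, was larger than the 2.99% from counting. The second B7 gene that binds CD28 and CTLA-4, Cd86, was not analysed here, so the pair could not be compared.

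Cd274, which encodes PD-L1, was a low-count gene in both groups. It had 10, 8 and 9 reads in Control and 22, 19 and 31 in STZ. The corresponding levels were 0.943, 0.727 and 0.702 CPM in Control and 1.6, 1.65 and 2.07 CPM in STZ. The groups did not overlap, and STZ replicate 3 was the highest. The log2 fold change was 1.18 with a standard error of 0.33, so that the difference lay within 1 standard error of the fold-change threshold. Because 2 of the 3 Control samples had fewer than 10 reads, Cd274 entered the fit through its level in STZ, and it was not tested when 10 reads were required in every sample. In the GRCr8 annotation the span of Cd274 overlaps that of Plgrkt, a plasminogen receptor gene with 20.9 ± 0.244 CPM in Control and 18.9 ± 0.636 CPM in STZ (SD, n = 3). Plgrkt had a log2 fold change of -0.14 (edgeR adjusted p = 0.17), opposite in sign to that of Cd274. Whether strand was used in counting is not stated, and the reads of this pair may not be fully separated.

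Vtcn1, which encodes B7-H4, had the third largest difference. Its levels were 25.5, 26.9 and 18.7 CPM in Control and 39, 34.2 and 34.2 CPM in STZ, from 240 to 536 reads per sample. Every STZ sample exceeded every Control sample, although Control replicate 3 was well under the other Control samples. The coefficient of variation in Control, 18.5%, was larger than the 6.1% that counting gives, and in STZ it was 7.69% against 4.56%. The log2 fold change was 0.61 (standard error 0.09), or 1.52-fold, under the fold-change threshold. An unnamed long non-coding RNA overlaps the span of Vtcn1 in GRCr8.

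Cd276 and Cd47 were the most steadily measured of the ligands and differed least. Cd276 had 163, 160 and 156 CPM in Control and 180, 187 and 177 CPM in STZ, from 1728 to 2646 reads per sample. Its log2 fold change was 0.18 (standard error 0.04), or 1.13-fold, and its replicates varied by 2.06% in Control and 2.85% in STZ. Cd47 had 74.2, 75.3 and 70.3 CPM in Control and 92.5, 85.6 and 84.8 CPM in STZ. Its log2 fold change was 0.26 (standard error 0.05), or 1.2-fold. In both genes the groups did not overlap, although the gap was small against the level. Among all genes tested, 25.7% had a larger log2 fold change than Cd276 and 18.4% a larger one than Cd47, against 6.02% for Vtcn1, 1.62% for Cd274 and 0.152% for Cd80.

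**Figure D1:**
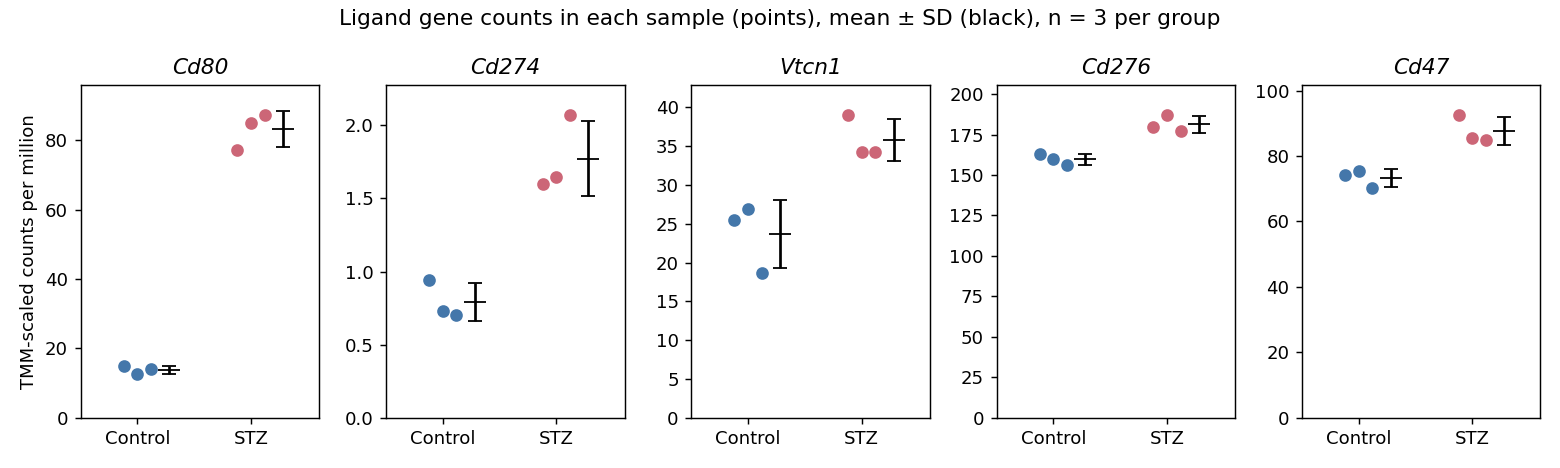
Levels of the 5 fitted ligand genes in each sample, in TMM-scaled CPM on linear axes that start at 0 and differ between panels; points are samples (replicates 1 to 3 from left to right), and the black bar is the mean with its SD (n = 3). Cd80 went from 13.9 to 83.1 CPM on average, while Cd276 went from 160 to 181 CPM.

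**Figure D2:**
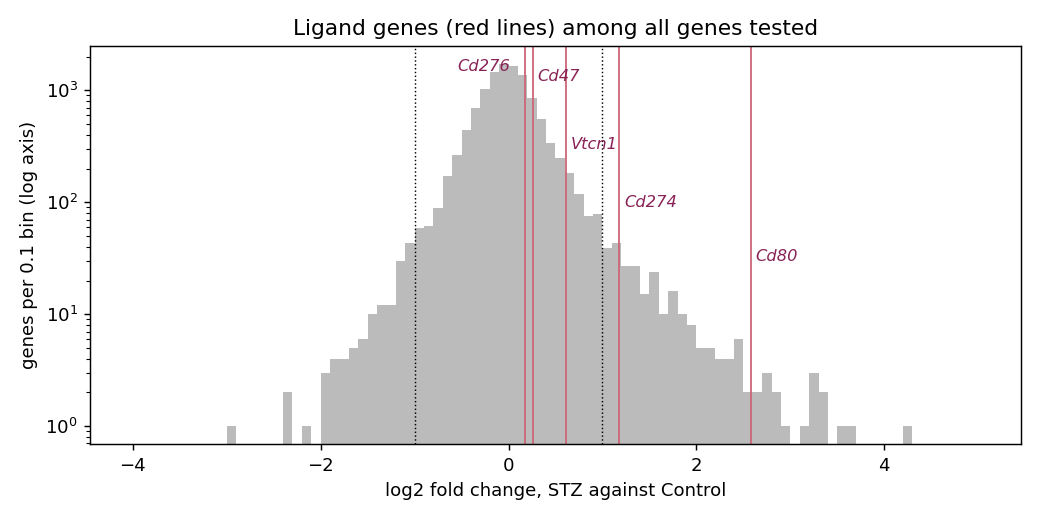
Log2 fold changes of the 11870 genes tested, as a histogram with a log count axis, with red lines at the ligand genes and dotted lines at the fold-change threshold of 1 in both directions. Cd80 at 2.58 lies in the far right tail, Cd274 at 1.18 just past the threshold, and Vtcn1, Cd47 and Cd276 lie between 0.18 and 0.61.

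Cd40 was at the limit of detection. It had 0 reads in every Control sample and 1, 1 and 0 reads in STZ replicates 1, 2 and 3. A count of 0 allows up to 3 reads, or 0.283 CPM in the smallest Control library, so no difference was detectable at this depth and no fold is given. Such limits cover counting error only.

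The ratio of reads between a pair of ligands within a sample does not depend on library scaling. The log2 ratio of Cd80 to Cd47 reads was -2.41 ± 0.15 in Control and -0.08 ± 0.16 in STZ (SD, n = 3), a shift of 2.33. The log2 ratio of Cd276 to Cd47 was 1.13 ± 0.03 in Control and 1.05 ± 0.08 in STZ, a shift of -0.08. That shift was as small as the replicate spread in STZ but larger than the spread in Control. Cd80, for whose rise the list was chosen, moved against each of the other 4 genes by 1.42 to 2.4 on the log2 scale. The smallest shift was against Cd274. Gene lengths were not used, so these ratios say how a pair shifted and not which gene was the more abundant.

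The fitted genes beside Cd80 on its chromosome had log2 fold changes between -0.17 and 0.17. In GRCr8, Cd80 lies between Timmdc1 and Adprh, and the 3 protein-coding genes on each side were examined. Poglut1, a protein O-glucosyltransferase, rose from 164 ± 4.36 to 185 ± 0.656 CPM (SD, n = 3; log2 fold change 0.17, edgeR adjusted p = 0.00056). Adprh, which removes ADP-ribose from arginine residues, had a log2 fold change of -0.17 (edgeR adjusted p = 0.034), at 36.1 ± 2.51 CPM in Control and 31.9 ± 0.838 CPM in STZ (SD, n = 3). The call of Adprh was lost when Control replicate 1, STZ replicate 1 or STZ replicate 2 was left out. Timmdc1, an assembly factor of mitochondrial complex I, had a log2 fold change of 0 with 29.6 ± 1.28 CPM in Control and 29.6 ± 0.308 CPM in STZ (adjusted p = 1, same edgeR test). Tmem39a (-0.02, adjusted p = 0.85) and Popdc2 (-0.01, adjusted p = 0.96) did not pass edgeR's test either, and Pla1a, which never exceeded 5 reads, was not fitted.

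**Figure D3:**
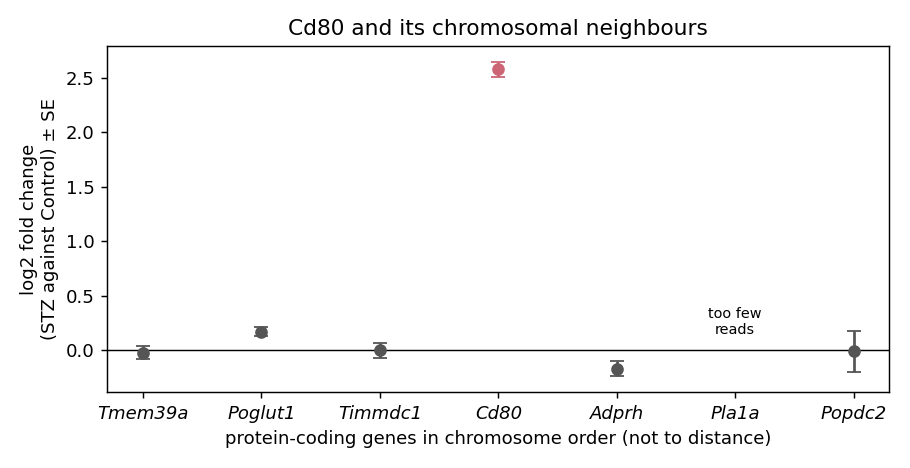
Log2 fold change (STZ against Control) with its standard error for Cd80 (red) and the 3 protein-coding genes on each side of it (grey), in chromosome order and not to distance. Cd80 stands at 2.58, and its fitted neighbours lie between -0.17 and 0.17.

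Among tested genes with a symbol, those nearest to Cd80 in profile over the 6 samples were Des, Cdkn1a, Pinlyp, Fam167a and Mmp2. Rows named only by an Ensembl or LOC identifier were left out of this ranking. The measure was the Euclidean distance between log2 CPM profiles, each centred on its mean over the samples. Des, which encodes the intermediate filament protein desmin, was nearest, with a distance of 0.172, a Pearson r of 0.999 over 6 samples and levels of 2.82 CPM in Control and 17.8 CPM in STZ. Cdkn1a, the gene of the cell cycle inhibitor p21, followed with a distance of 0.209 and an r of 0.998, at 232 CPM in Control and 1300 CPM in STZ. Distances were 0.483 for Pinlyp, 0.572 for Fam167a and 0.612 for Mmp2, the last a gelatinase that digests matrix collagen. With only 2 groups such likeness is common, since 286 other genes had an r of at least 0.99 to Cd80. They were 2.41% of all genes tested, those without a symbol included. When 1 sample was left out, 2 to 4 of these genes remained among the nearest 5, the fewest (2) without STZ replicate 2 and 3 without any 1 of the Control replicates.

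The surroundings of the ligands were examined through 8 lists of receptors, partners and related ligands, which together hold 106 genes, and 64 could be fitted. At the adjusted p threshold of edgeR's test, 27 rose and 10 fell, that is 42.2% and 15.6%, against 25.9% and 25.1% of all genes tested. The median log2 fold change was 0.12. Nectin4, Tnfsf18 and Alcam, 3 of the 64, also passed the fold-change threshold, all higher. Among all genes tested, 2.26% passed both thresholds in that direction. Nectin4 entered the fit through its level in STZ alone, which favours a rise. Since the lists were chosen with earlier results of these data known and the genes had to pass a filter, nothing is read from these counts.

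Among other checkpoint and butyrophilin-family ligands, 6 of 9 genes tested were higher, none was lower and 3 did not pass. Beside this stand 25.9% higher and 25.1% lower of all genes tested. The list had a median log2 fold change of 0.31. Nectin4, a cell adhesion molecule that also binds the inhibitory receptor TIGIT, had 2, 3 and 1 reads in Control and 25, 17 and 24 in STZ. The fitted log2 fold change was 3.16 ± 0.47 (SE; edgeR adjusted p = 3.6e-07), but its Control level of 0.18 ± 0.0977 CPM (SD, n = 3) rests on very few reads, and it entered the fit through STZ alone. Ceacam1, a homophilic adhesion molecule that also binds TIM-3, rose from 13.8 ± 0.8 to 23.5 ± 0.603 CPM (SD, n = 3; log2 fold change 0.77, adjusted p = 1.4e-09, same edgeR test). Lgals9, which encodes galectin-9, another ligand of TIM-3, rose from 38 ± 4.04 to 51.1 ± 1.15 CPM (SD, n = 3; log2 fold change 0.44, adjusted p = 4.3e-07, same edgeR test).

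Of the TNF-superfamily ligands, 2 of 4 genes tested were higher and none lower, with a median log2 fold change of 0.57. Among all genes tested, 25.9% were higher and 25.1% lower. Tnfsf18, which encodes the ligand of the co-stimulatory receptor GITR, had 4.53, 5.46 and 5.85 CPM in Control and 23.3, 23.9 and 25.9 CPM in STZ. All STZ samples lay far above all Control samples, and the log2 fold change was 2.20 ± 0.11 (SE; edgeR adjusted p = 3.8e-20). Tnfsf15, the ligand of death receptor 3, had a log2 fold change of 0.74 ± 0.25 (SE; edgeR adjusted p = 0.012). That call was lost without Control replicate 2 or STZ replicate 1.

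Of 13 counter-receptor genes, 7 were matched to no row, so that their level is not known here. Of the 6 with a row, Cd28, the activating receptor of CD80, had 2 to 6 reads per sample, Btla, the receptor of HVEM, had 0 to 4, and Lag3, an inhibitory receptor of T cells, had 7 to 16, and none of these was fitted. Of the 3 tested, 2 were higher and none lower, where 25.9% of all genes tested were higher and 25.1% lower. Sirpa, the receptor of CD47 on phagocytes, was also read in these cells, at 160 ± 4.51 CPM in Control and 179 ± 0.832 CPM in STZ (SD, n = 3; log2 fold change 0.16, adjusted p = 0.0011, edgeR's quasi-likelihood test). Rgmb, a BMP co-receptor that also binds PD-L2, rose from 34.9 ± 2.27 to 44.7 ± 0.65 CPM (SD, n = 3; log2 fold change 0.35, adjusted p = 1.3e-05, same edgeR test).

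In the list of CD47 partners and modifier, 3 of 5 genes tested were higher and 1 lower. The shares over all genes tested were 25.9% and 25.1%. Itgb3, an integrin subunit on the same list, had 0 to 4 reads per sample and was not fitted. Itgav, the integrin alpha-v subunit, rose by 0.38 on the log2 scale (adjusted p = 1.2e-10), Calr, a chaperone that acts as a phagocytosis signal at the cell surface, by 0.21 (adjusted p = 9.2e-07) and Thbs1, the secreted CD47 ligand thrombospondin, by 0.18 (adjusted p = 9.8e-05), all by edgeR's quasi-likelihood test. Calr was read at 2060 ± 34.9 CPM in Control and 2390 ± 27.6 CPM in STZ (SD, n = 3). The gene counted as lower was Qpctl, the glutaminyl cyclase that modifies CD47, at 17.8 ± 1.05 CPM in Control and 15.1 ± 1.1 CPM in STZ (SD, n = 3; log2 fold change -0.25, adjusted p = 0.03, same edgeR test). Its call was lost when any 1 of 4 samples was left out, namely Control replicate 2, Control replicate 3, STZ replicate 1 or STZ replicate 3. Qpctl was named after its values were seen.

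Of the regulators of PD-L1 and interferon-gamma signalling, 3 were higher, 5 lower and 6 not past the test among 14 tested. Over all genes tested, 25.9% were higher and 25.1% lower. The list had a median log2 fold change of -0.09. Irf1, an interferon-induced transcription factor, rose from 44.1 ± 1.9 to 59.5 ± 2.34 CPM (SD, n = 3; log2 fold change 0.43, adjusted p = 4.5e-08, edgeR's quasi-likelihood test). Socs3, an inhibitor of cytokine receptor signalling, fell from 79.6 ± 1.78 to 57.5 ± 0.671 CPM (SD, n = 3; log2 fold change -0.47, adjusted p = 3.2e-10, same edgeR test). Spop, the adaptor of a ubiquitin ligase that acts on PD-L1, fell from 65.9 ± 1.06 to 55.8 ± 4.37 CPM (SD, n = 3; log2 fold change -0.24, adjusted p = 0.00054, same edgeR test).

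The CD40 and NF-kB signalling list had 5 higher, 3 lower and 11 not past the test among 19 tested. Its median log2 fold change was 0.11. The shares over all genes tested were again 25.9% higher and 25.1% lower. Nfkb2, the precursor subunit of the non-canonical NF-kB route, rose from 36.6 ± 2.97 to 49.4 ± 0.688 CPM (SD, n = 3; log2 fold change 0.43, adjusted p = 3.7e-07, edgeR's quasi-likelihood test). Map3k14, the kinase at the head of that route, had a log2 fold change of 0.30 (adjusted p = 0.00049), whereas Nfkb1, the canonical subunit precursor, had one of -0.25 (adjusted p = 8.8e-05, both by the same edgeR test). None of the list passed the fold-change threshold.

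Antigen presentation through MHC class II, with which CD80 acts on T cells, was represented by few genes with many reads. Of 14 genes listed, RT1-Bb was matched to no row and 8 never exceeded 6 reads, including Cd74, the invariant chain, with 1 to 6 reads, and Ciita, the master activator of the class II genes, with 0 to 6 reads. Of the 5 tested, 2 were higher and 1 lower, where 25.9% of all genes tested were higher and 25.1% lower. RT1-DMa, a subunit of the peptide exchange factor, rose from 45.3 ± 2.14 to 71.1 ± 2.42 CPM (SD, n = 3; log2 fold change 0.65, adjusted p = 5.9e-13, edgeR's quasi-likelihood test), while its partner RT1-DMb had 19 to 28 reads (log2 fold change -0.13, adjusted p = 0.71, same edgeR test). Of the RFX factors that bind class II promoters, Rfx5 had a log2 fold change of 0.12 (adjusted p = 0.031) and Rfxank one of -0.37 (adjusted p = 0.0054, both by the same edgeR test). The call of Rfx5 was lost without Control replicate 1, Control replicate 3 or STZ replicate 2, and that of Rfxank without STZ replicate 3.

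Of 10 ligands for leukocyte adhesion, 5 were tested, and the other 5 had at most 10 reads in every sample. Among those tested, 4 were higher and none lower, where 25.9% of all genes tested were higher. Their median log2 fold change, 0.95, was the highest of the 8 lists, in which 3 to 19 genes were tested. Alcam, which binds CD6 on T cells, had 60.3, 60.2 and 59.8 CPM in Control and 137, 140 and 137 CPM in STZ. The replicates of each group were almost equal, and the log2 fold change was 1.20 ± 0.05 (SE; edgeR adjusted p = 2.7e-24). Icam1, the ligand of the integrin LFA-1, rose from 89.5 ± 1.67 to 175 ± 2.29 CPM (SD, n = 3; log2 fold change 0.96, adjusted p = 4.3e-22, same edgeR test). Jam3, a junctional adhesion molecule, rose from 31.8 ± 2.25 to 61.3 ± 1.72 CPM (SD, n = 3; log2 fold change 0.95, adjusted p = 1.2e-16, same edgeR test). Vcam1, with 0 to 2 reads per sample, was not fitted.

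**Figure D4:**
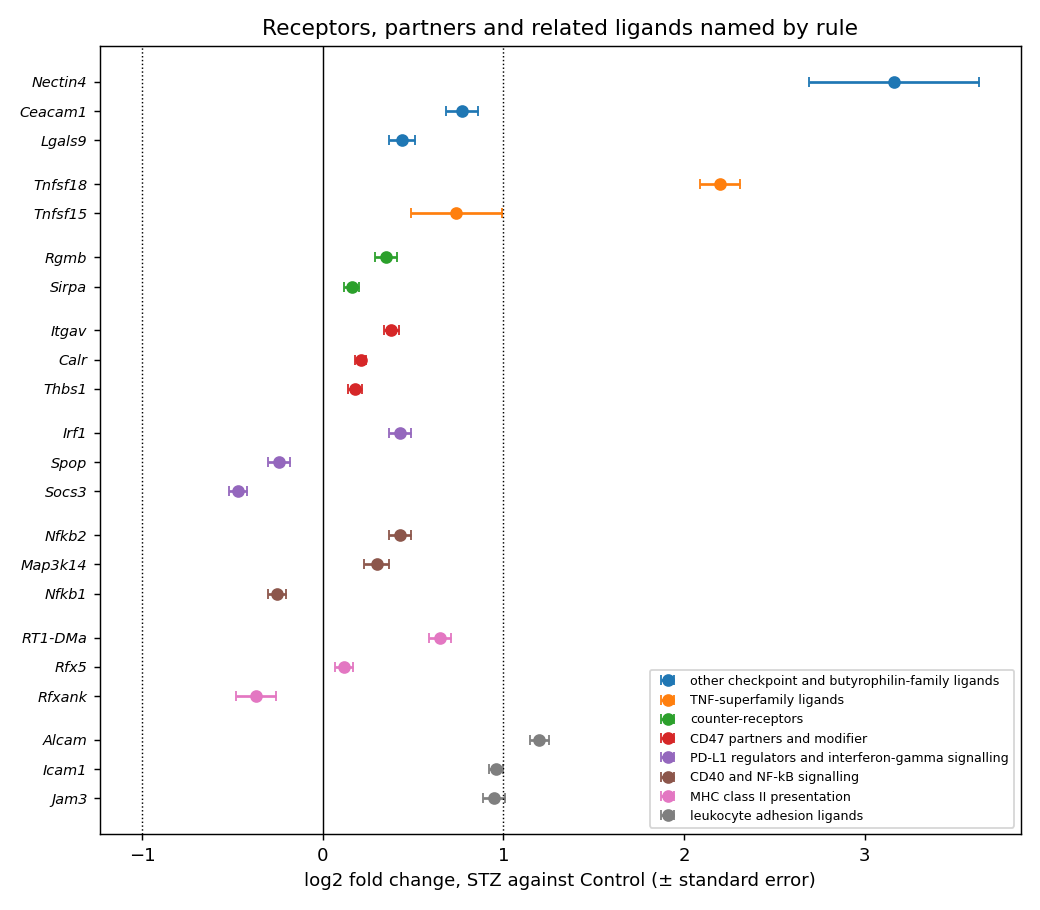
Log2 fold changes (STZ against Control) with standard errors of the genes named by rule from the 8 lists, coloured by list, with dotted lines at the fold-change threshold of 1 in both directions. Nectin4, Tnfsf18 and Alcam lie past the threshold at 3.16, 2.20 and 1.20, and Socs3, Rfxank, Nfkb1 and Spop lie under 0.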

How the data were processed

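Messenger RNA libraries (TruSeq stranded, read as 100-bp single ends) of 3 Control and 3 STZ samples were sequenced by the study. The authors aligned them to Rnor6 using STAR 2.7.10a and assigned unique alignments to genes using featureCounts. The deposited values are raw counts, not normalized. The strand setting and the annotation release are not given in the sources used here. Columns were assigned to groups by their titles.

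From these counts, TMM scaling, filterByExpr and the quasi-likelihood test (~ group) were run in edgeR 4.0.16 (R 4.3.3), adjusting after Benjamini and Hochberg over 11870 genes and the thresholds of the study (adjusted p 0.05, log2 fold change 1 in either direction). Standard errors follow from each log2 fold change and its F statistic. The ligands and lists were chosen with earlier results of these data known. The genes named are the 9 ligands, the neighbours of Cd80, defining markers and the 5 nearest profiles among genes with a symbol (prior count 2). From each list, up to 3 genes with the smallest p among those with adjusted p under 0.05 are named. Every list gene past both thresholds is named too. Alternatives were DESeq2 1.42.0, limma-voom (limma 3.58.1), the likelihood ratio test, glmTreat, other filters and scalings, a replicate block and each sample left out. No replicate pair looked like a library deposited a second time (lowest chi-square over its degrees of freedom, 1.8). Promoter windows and gene order came from RefSeq (GRCr8), another build than that of the counts. With 3 samples against 3, depth of 10430924 reads or more per sample limits genes with few reads.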

Additional observations from a re-analysis of the deposited data

How the results depend on the processing

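Each gene in each alternative fit was counted as 1 refit, with glmTreat left out. On that count, the 5 fitted ligand genes kept their direction and an adjusted p-value under 0.05 in all 74 refits. These refits use the same samples, so they describe the effect of processing and are no test of the ligands. Log2 fold changes over these refits were 2.52 to 2.64 for Cd80, 1.04 to 1.31 for Cd274, 0.45 to 0.71 for Vtcn1, 0.15 to 0.20 for Cd276 and 0.22 to 0.29 for Cd47. The number of ligands past both thresholds was 2, and 1 (Cd80) under a minimum of 10 counts per sample, where Cd274 was not tested, and 1 with glmTreat, which requires the fold itself to exceed the threshold.

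Over all genes, 400 were differentially expressed (268 higher), 585 (399 higher) with no filter, 249 (160 higher) with at least 10 counts in every sample, 112 (92 higher) with glmTreat and 403 to 462 with 1 sample left out. Of 240 outcomes for the per-list counts, 219 stayed within 1.5 times, and the cause of the others was not tested. Under library size only, other checkpoint ligands had 1 gene lower instead of 0, CD47 partners 2 lower instead of 1 and MHC class II genes 1 higher instead of 2; under the upper quartile, other checkpoint ligands had 1 lower and MHC class II genes 1 higher. With DESeq2's Wald test, TNF-superfamily ligands had 1 higher instead of 2, CD47 partners 0 lower, CD40 and NF-kB signalling 3 higher instead of 5, MHC class II genes 1 higher and the neighbours of Cd80 1 past the threshold instead of 2. With 1 sample left out, ranges were 0 to 1 lower for other checkpoint ligands (1 without Control replicate 1) and counter-receptors (1 without STZ replicate 1), 1 to 2 higher for TNF-superfamily ligands, 0 to 1 lower for CD47 partners, 1 to 2 higher and 0 to 1 lower for MHC class II genes, 1 to 2 for the neighbours of Cd80 and 2 to 4, of 5, for the genes nearest in profile.

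Of 553 refits of 37 named genes, 528 kept direction and call, 14 lost a call (Rfx5, Rfxank, Tnfsf15 and Adprh) and 11 changed sign. The 37 did not include Qpctl, whose lost calls are given above, the cell type markers or the neighbours of Vtcn1. The sign changes were those of Timmdc1 (0 with at least 10 counts in every sample, limma-voom and the replicate block), and, with 1 sample left out, of Timmdc1 (-0.04 to 0.02), Tmem39a (-0.08 to 0.02) and Popdc2 (-0.1 to 0.14), none of which was called in any fit. Control and STZ samples share replicate numbers, but their deviations from the group means correlated at only 0.0421, -0.0255 and 0.0736 over 11587 genes, so the numbers are not taken as a pairing. A fit with the replicate block called 398 genes, 2 of the ligands among them.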

Other observations

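Icos, which encodes the T cell receptor for ICOS ligand, was read at 47.9 ± 0.727 CPM in Control and 44.4 ± 3.4 CPM in STZ (SD, n = 3), from 495 to 664 reads per sample (log2 fold change -0.11, adjusted p = 0.14, edgeR's quasi-likelihood test). In the same libraries Cd28 had at most 6 reads. Of the T cell markers, Cd3d and Cd3g had at most 1 read, Cd3e had 1 to 4 and Lck had 22 to 44. Cd4 and Cd8a were matched to no row. Icos was named after its values were seen.

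Itgax, a marker of dendritic cells (CD11c), had 3.8 ± 0.272 CPM in Control and 6.77 ± 0.156 CPM in STZ (SD, n = 3; log2 fold change 0.83, adjusted p = 4.4e-05, edgeR's quasi-likelihood test), while Ptprc had at most 1 read. Among renal tubule markers, Aqp1, which encodes a water channel, fell from 13.1 ± 3.68 to 5.43 ± 0.663 CPM (SD, n = 3; log2 fold change -1.25, adjusted p = 9.4e-09, same edgeR test). Both were named after their values were seen.

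Of the 3 genes on each side of Vtcn1 in GRCr8, the adjacent ones were Man1a2, which rose from 81.5 ± 3.5 to 90 ± 3.71 CPM (SD, n = 3; log2 fold change 0.14, adjusted p = 0.016, edgeR's quasi-likelihood test), and Trim45 (log2 fold change 0.13, edgeR adjusted p = 0.63). Farther out, Gdap2 and Ttf2 had log2 fold changes of 0.14 and -0.08 (edgeR adjusted p = 0.16 and 0.25). Tent5c had 2.14 ± 0.73 CPM in Control and 0.876 ± 0.379 CPM in STZ (SD, n = 3; log2 fold change -1.30, edgeR adjusted p = 0.0012). Cd101, an immunoglobulin-family protein of leukocytes, had 1.69 ± 0.673 and 0.655 ± 0.111 CPM (SD, n = 3; log2 fold change -1.35, edgeR adjusted p = 0.0017). Both were low-count genes, with at most 29 and 26 reads in a sample, and they passed the filter on low counts through their level in Control. These genes were named after their values were seen.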
